A study of Mus musculus with 6 samples.

Results

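The constitutive proteasome genes were read from RNA-seq of mouse uterine luminal epithelium as the genes whose symbol starts with Psma, Psmb, Psmc, Psmd, Psme, Psmf or Psmg and a digit, without the immunoproteasome subunits Psmb8, Psmb9 and Psmb10 and without pseudogenes. The rule found 47 of the 24964 genes in the table and used no expression value. They comprise 7 genes of the α ring and 7 of the β ring of the 20S core particle, 6 ATPases and 3 other subunits of the base of the 19S regulatory particle, 8 subunits of its lid, 3 chaperones of base assembly, 4 chaperones of core assembly and 6 genes of alternative activators and an inhibitor. The other members are Psma8 and Psmb11, core subunits restricted to testis and thymus, and Psmc3ip, whose product acts in meiotic recombination and which shares only the symbol.

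The 3 Foxo1dd samples came from Pgrcre/+ Foxo1f/f females, in which Cre recombinase is made from the progesterone receptor locus and deletes floxed Foxo1, a forkhead transcription factor. The 3 Foxo1ff samples came from Foxo1f/f females without Cre. All females were raised to 8 weeks of age, mated with stud males and dissected on pregnancy day 4, around the time when the embryo attaches, and the luminal epithelium was collected by laser capture. Pgrcre acts in every cell type that expresses the progesterone receptor, not in the luminal epithelium alone, and Foxo1dd females also carry Cre on 1 Pgr allele that the Foxo1ff females lack, so loss of Foxo1 and presence of Pgrcre cannot be told apart. The labels call the samples bioreplicates and say no more of the animals behind them, so the p-values below measure the spread between these samples.

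The proteasome degrades proteins that carry ubiquitin chains. In the 20S core, α rings form the gate and β rings carry the caspase-like, trypsin-like and chymotrypsin-like sites. The 19S particle recognises the ubiquitin chain, removes it, unfolds the substrate and opens the gate. Subunit genes are usually expressed in concert, through CCAAT boxes and through NRF1 (Nfe2l1), which binds antioxidant response elements when proteasome activity is limiting. Interferon replaces the catalytic subunits by Psmb8, Psmb9 and Psmb10 and induces the PA28 activator.

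The values are FPKM, read counts scaled by gene length and library size, as the authors computed them. Changes are differences of log2(FPKM + 1), Foxo1dd minus Foxo1ff, with the standard error (SE) and the Benjamini-Hochberg adjusted p of limma over the 11427 genes whose mean reached 1 FPKM, and a gene is said to have risen or fallen where that p was under 0.05. Fold changes are ratios of the group means of FPKM. Foxo1 itself had 1.72, 0.942 and 1.22 FPKM in the Foxo1dd samples and 160, 119 and 111 FPKM in the Foxo1ff samples. Pgr stood at 28.3 to 36.2 FPKM in Foxo1dd and at 1.64 to 2.44 FPKM in Foxo1ff. All 12 epithelial markers were tested, of which 5 rose and 2 fell, so they did not move together. Their summed level was 4484 to 5508 FPKM in Foxo1dd and 3167 to 4211 FPKM in Foxo1ff. The sums over 10 stromal markers were 13.0 to 23.5 FPKM in Foxo1dd and 13.0 to 19.1 FPKM in Foxo1ff. Of 7 glandular markers, 4 were tested, of which 3 fell and Lif rose, with sums of 1.04 to 6.54 FPKM in Foxo1dd and 51.8 to 209.8 FPKM in Foxo1ff, of which Spink1 made up 44.2 to 178 FPKM in Foxo1ff, and Ttr was listed at 0 in all samples. Foxo1dd replicate 2 stood apart with 13995 genes above 0, against 15474 to 16062 in the other samples. Fewer cells of a type and less RNA per cell cannot be told apart in these samples.

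Of the 45 members that reached a mean of 1 FPKM, 6 rose in Foxo1dd epithelium, 19 fell and 20 did not pass the test. Psma8 was listed at 0 in all 6 samples and Psmb11 at no more than 0.038 FPKM. Across all tested genes 56.4% changed, 22.2% upward and 34.2% downward, and the corresponding shares of the members were 55.6%, 13.3% and 42.2%. The share of members that changed was therefore close to that of all genes. The median change of the members was -0.27, against -0.15 for all tested genes. With the samples rescaled by the median of ratios, which moved the median of all genes by 0.14, 8 members rose and 10 fell, against 27.9% and 28.9% of all genes (56.8% in all), and the share of upward calls among the members' calls was 44.4% in place of 24%. All 6 that rose and 10 of the 19 that fell were called in the same direction on both scales. Without Foxo1ff replicate 2, 11 members fell, and without Foxo1dd replicate 2, 6 rose and 17 fell. On the deposited scale, the Foxo1dd samples lay entirely above the Foxo1ff samples in 7 members and entirely below in 23. Of all tested genes, 25.3% and 39% (64.2% in all) did so.

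**Figure D1:**
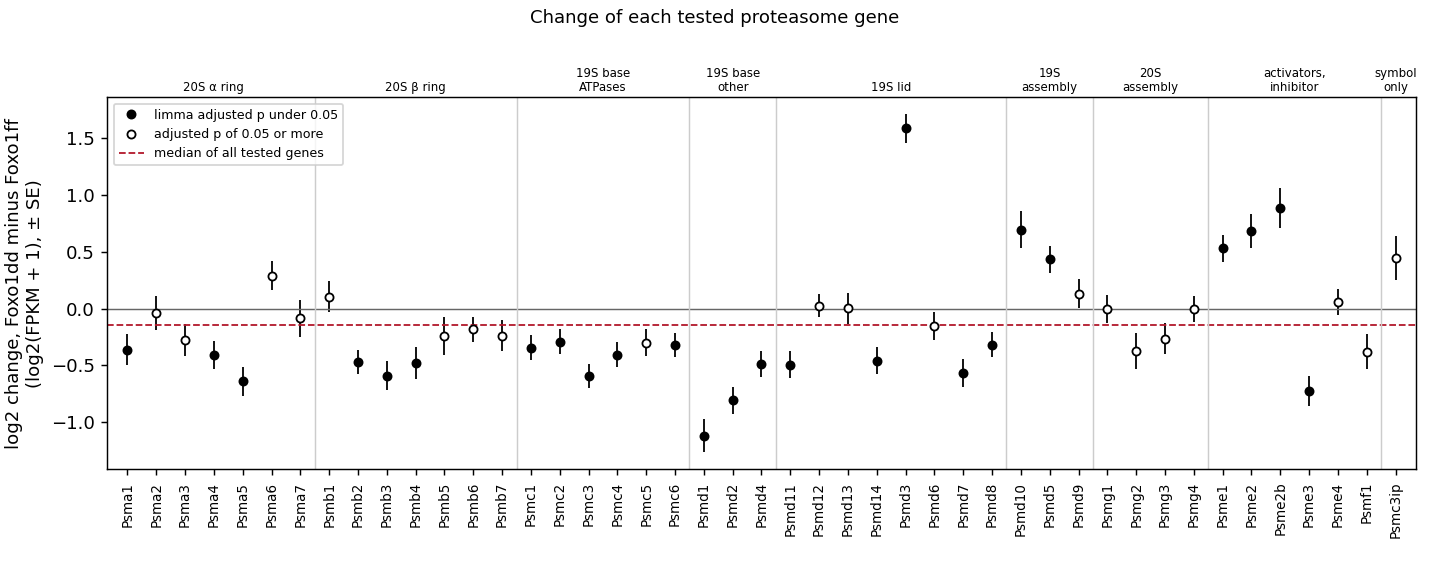
Changes of the 45 tested members, as log2(FPKM + 1) in Foxo1dd minus Foxo1ff, grouped by subcomplex; bars show 1 SE, filled points have a limma adjusted p under 0.05, and the dashed line is the median of all tested genes at -0.15. Psmd3 at 1.59 and Psmd1 at -1.12 are the extremes, and the ATPases all lie below the dashed line.

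Among the 31 structural subunits of the 26S proteasome, the 20S core with the 19S particle, 18 fell (58.1%, against 34.2% of all tested genes) and 1 rose, with a median change of -0.32. The 17 subunits of the 19S particle held 12 of those that fell and the 1 that rose, and the 14 core subunits held 6 that fell and none that rose. On the median-of-ratios scale, 6 of the 19S subunits and 3 of the core subunits fell, and Psmd3 in the 19S particle and Psma6 in the core rose. On that scale 29.0% of the structural subunits fell, near the 28.9% of all genes, so their share of falls no longer exceeded that of all genes. Their share of rises was 6.45%, against 27.9% of all genes. Their median change was -0.17 on that scale and still lay below that of all genes, at -0.0068. The shares that fell were 35.3% of the 19S and 21.4% of the core subunits. Without Foxo1ff replicate 2, 7 of the 19S and 3 of the core subunits fell; the core also had 3 that fell without Foxo1ff replicate 3 or without Foxo1dd replicate 3. The difference between core and regulatory particle was not tested.

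The α ring gates the entry to the core, and 3 of its 7 genes, Psma5, Psma4 and Psma1, fell. Psma5 had 73.8, 79.9 and 64.9 FPKM in Foxo1dd, against 101, 116 and 125 FPKM in Foxo1ff. The groups did not overlap, and the change was -0.64 ± 0.13 (SE, adjusted p = 0.00262). Psma4 had 154, 138 and 121 FPKM in Foxo1dd and 169, 194 and 184 FPKM in Foxo1ff, a change of -0.41 ± 0.13 (adjusted p = 0.0213) that did not pass the test on the median-of-ratios scale (adjusted p = 0.133). Psma1 fell by 0.36 with an adjusted p of 0.0492, and that call was lost under 10 of the 13 alternative analyses. In the opposite direction, Psma6 had 244, 214 and 224 FPKM in Foxo1dd, against 164, 183 and 212 FPKM in Foxo1ff. Its Foxo1dd samples all lay above its Foxo1ff samples, but the change of 0.29 ± 0.13 did not pass the test (adjusted p = 0.0818) except without Foxo1ff replicate 3 or after the samples were rescaled (0.44, adjusted p = 0.0251 on the median-of-ratios scale). Psma2, Psma3 and Psma7 had changes of -0.04, -0.27 and -0.08, with overlapping samples and adjusted p from 0.127 to 0.83.

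In the β ring, the 3 genes of the constitutive catalytic subunits did not pass the test, and 3 of the 4 non-catalytic ones fell; the difference between the kinds was not tested. Psmb5, the chymotrypsin-like subunit, had 71.6, 87.8 and 88.9 FPKM in Foxo1dd, against 77.1, 106 and 114 FPKM in Foxo1ff, with overlapping samples and a change of -0.24 ± 0.17 (adjusted p = 0.24). For Psmb6, the caspase-like subunit, the levels were 148, 149 and 138 FPKM in Foxo1dd and 152, 167 and 176 FPKM in Foxo1ff, a change of -0.18 ± 0.11 (adjusted p = 0.192). Psmb7, the trypsin-like subunit, had 137, 144 and 121 FPKM in Foxo1dd and 135, 170 and 171 FPKM in Foxo1ff, a change of -0.24 ± 0.13 (adjusted p = 0.162). Foxo1dd levels of Psmb6 lay below all Foxo1ff levels by a narrow margin, whereas those of Psmb7 overlapped. Without Foxo1ff replicate 1, Psmb5 (-0.41, adjusted p = 0.0369) and Psmb7 (-0.35, adjusted p = 0.0454) passed the test as lower, and Psmb6 passed it under none of the 13 alternatives.

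Psmb3 had 93.9, 107 and 85.4 FPKM in Foxo1dd epithelium, against 131, 147 and 154 FPKM in Foxo1ff, a fall of 0.59 ± 0.13 on the log2 scale (adjusted p = 0.00341). Psmb2 had 105, 117 and 114 FPKM in Foxo1dd, against 165, 151 and 150 FPKM in Foxo1ff, with a change of -0.47 ± 0.11 (adjusted p = 0.00516). Neither gene's samples overlapped, and both calls held under all 13 alternatives, for Psmb2 at an adjusted p of 0.0486 on the median-of-ratios scale. Psmb4 changed by -0.47 ± 0.14 (adjusted p = 0.0175), a call lost under 7 alternatives. Psmb1 was the most abundant core gene in all 6 samples, at 342 to 417 FPKM in Foxo1dd and 300 to 372 FPKM in Foxo1ff (0.10, adjusted p = 0.543). The 14 core genes summed to 2080 ± 161 FPKM in Foxo1dd and 2388 ± 246 FPKM in Foxo1ff (SD, n = 3 each), with overlapping ranges of 1922 to 2243 and 2115 to 2594 FPKM.

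**Figure D2:**
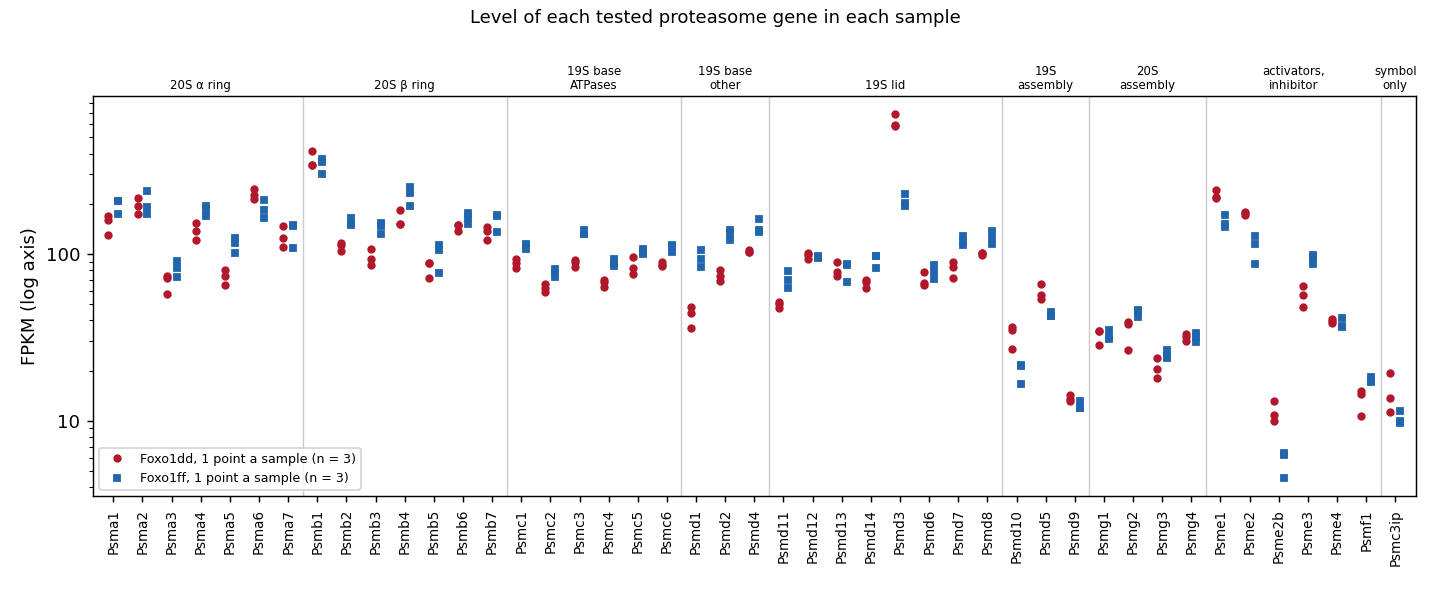
FPKM of the 45 tested members in each sample on a log axis, by subcomplex, Foxo1dd points left of Foxo1ff squares. Psmd3 reaches 692 FPKM in Foxo1dd, and Psmd1 lies at 36.1 to 48.3 FPKM in Foxo1dd and at 83.0 to 105 FPKM in Foxo1ff.

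The base of the 19S particle docks on the core. Its 6 ATPases form the unfolding ring and had similar levels to each other, from 58.9 to 95.8 FPKM in Foxo1dd and from 72.7 to 140 FPKM in Foxo1ff. On the deposited scale, every Foxo1dd sample lay below every Foxo1ff sample in each of the 6 genes. Of all tested genes, 39% showed such a downward separation. Whether the 6 genes stay separated after rescaling is not reported. A total of 5 passed the test, but only Psmc3 did so on the median-of-ratios scale. Psmc3 had 92.3, 83.7 and 89.8 FPKM in Foxo1dd, against 131, 140 and 132 FPKM in Foxo1ff, a change of -0.60 ± 0.11 (adjusted p = 0.00119). It ranked highest of the 6 in every Foxo1ff sample, whereas Psmc3, Psmc5 and Psmc6 each ranked highest in 1 Foxo1dd sample. Psmc4 had 68.4, 63.0 and 69.9 FPKM in Foxo1dd and 84.6, 93.9 and 88.9 FPKM in Foxo1ff (-0.40 ± 0.11, adjusted p = 0.0111). Psmc1, Psmc6 and Psmc2 changed by -0.34, -0.32 and -0.29 with adjusted p of 0.0225, 0.0287 and 0.0481, and their calls were lost under 5, 8 and 11 alternatives. Psmc5 missed the threshold at -0.30 (adjusted p = 0.0588, and 0.0265 without Foxo1dd replicate 1).

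All 3 non-ATPase base subunits fell, on both scales and under every alternative analysis. Psmd1, a large scaffold subunit, had 48.3, 36.1 and 44.5 FPKM in Foxo1dd, against 105, 93.8 and 83.0 FPKM in Foxo1ff. The groups were well separated, with a level 2.19-fold lower in Foxo1dd and a change of -1.12 ± 0.15 (adjusted p = 0.000195). Psmd1 was the least abundant of the 31 structural genes by mean level in Foxo1dd and ranked 24 of 31 in Foxo1ff. Psmd2, the other scaffold, which docks ubiquitin-like domains of shuttle proteins, had 80.5, 68.7 and 73.5 FPKM in Foxo1dd and 132, 139 and 121 FPKM in Foxo1ff. Its level was 1.76-fold lower (-0.81 ± 0.12, adjusted p = 0.00034). Psmd4, a ubiquitin receptor, had 103, 106 and 102 FPKM in Foxo1dd, against 139, 163 and 136 FPKM in Foxo1ff (-0.48 ± 0.11, adjusted p = 0.00588). The annotated exons of Psmd1 on chromosome 1 (86064387 to 86139151, plus strand, mm10) overlap those of Gm21972 on the same strand and of Htr2b on the opposite strand. How the counting assigned such reads is not given in the sources used here.

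The lid, which removes the ubiquitin chain, held the largest rise and some falls. Psmd3, a lid scaffold subunit, had 595, 586 and 692 FPKM in Foxo1dd epithelium, against 227, 201 and 194 FPKM in Foxo1ff. Every Foxo1dd sample was more than 2 times the highest Foxo1ff sample, and the means were 624 ± 58.3 and 207 ± 17.7 FPKM (SD, n = 3 each), a 3.01-fold difference (1.59 ± 0.12 on the log2 scale, adjusted p = 9.58e-06). Psmd3 was already the most abundant lid gene in Foxo1ff, ranking 3 of the 31 structural genes by mean level, and ranked 1 in Foxo1dd. The gene lies on chromosome 11 (98682554 to 98695979, plus strand, mm10), where the antisense gene Gm12356 overlaps its exons.

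Psmd7, which holds the deubiquitinase in place, had 89.1, 83.3 and 71.7 FPKM in Foxo1dd, against 113, 120 and 128 FPKM in Foxo1ff, a change of -0.56 ± 0.12 (adjusted p = 0.00372). Psmd14, the deubiquitinase itself, had 70.2, 68.1 and 62.7 FPKM in Foxo1dd and 82.6, 97.1 and 97.9 FPKM in Foxo1ff (-0.46 ± 0.12, adjusted p = 0.00907, and 0.0725 on the median-of-ratios scale). Both genes of this dimer were lower in all Foxo1dd samples. Psmd11, which contacts the core and is limiting for 26S assembly in some cell types, had 47.3, 50.04 and 51.5 FPKM in Foxo1dd and 78.6, 70.1 and 62.8 FPKM in Foxo1ff (-0.49 ± 0.12, adjusted p = 0.00725). Psmd8 changed by -0.32 (adjusted p = 0.0338, lost under 9 alternatives). The remaining lid genes had overlapping samples, with changes of 0.03 for Psmd12 (adjusted p = 0.838), 0.00 for Psmd13 (0.995) and -0.16 for Psmd6 (0.308). Psmd12 was at 93.9 to 101 FPKM in Foxo1dd and 94.6 to 97.4 FPKM in Foxo1ff, a narrow range in both genotypes.

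In FPKM as deposited, the opposite movements cancelled in the sum over the 19S particle. Its 17 genes summed to 1870 ± 59.0 FPKM in Foxo1dd and 1866 ± 50.8 FPKM in Foxo1ff (SD, n = 3 each). As a share of the summed FPKM of all genes they did not cancel. That share was 0.326% to 0.341% in Foxo1dd and 0.282% to 0.301% in Foxo1ff, without overlap. Without Psmd3 the sums were 1300, 1216 and 1220 FPKM in Foxo1dd, against 1617, 1723 and 1637 FPKM in Foxo1ff, with no overlap. The ATPases summed to 450 to 505 FPKM in Foxo1dd and 605 to 645 FPKM in Foxo1ff, and the other base subunits to 211 to 232 FPKM in Foxo1dd and 340 to 395 FPKM in Foxo1ff. The lid summed to 1142 to 1212 FPKM in Foxo1dd and 863 to 884 FPKM in Foxo1ff, with Psmd3 included. Within a sample, the most abundant 19S gene exceeded the least abundant by 12.6 to 16.2 times in Foxo1dd and by 2.87 to 3.34 times in Foxo1ff. Psmd3 was the highest in every sample of both genotypes and carried this difference: without it the ratios were 2.17 to 2.94 in Foxo1dd and 2.04 to 2.32 in Foxo1ff, which overlap.

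Of the 3 chaperones that guide ATPase pairs into the base, 2 rose. Psmd10, known as gankyrin, had 36.3, 35.1 and 26.8 FPKM in Foxo1dd, against 16.6, 21.5 and 21.3 FPKM in Foxo1ff. All Foxo1dd samples were higher, by 1.65-fold in the mean (0.69 ± 0.16, adjusted p = 0.00547). Psmd5 had 57.0, 66.0 and 53.7 FPKM in Foxo1dd and 42.3, 42.4 and 44.8 FPKM in Foxo1ff (0.44 ± 0.12, adjusted p = 0.0123), a call lost at an adjusted p of 0.0534 without Foxo1ff replicate 2. Psmd9 did not pass the test (0.13, adjusted p = 0.404). None of the 4 core assembly chaperones passed the test: Psmg1, Psmg2, Psmg3 and Psmg4 had changes of -0.00, -0.37, -0.26 and -0.00, and their levels ran from 18.1 to 39.3 FPKM in Foxo1dd and from 23.8 to 46.3 FPKM in Foxo1ff. Psmg2 came closest, at an adjusted p of 0.0743, and without Foxo1dd replicate 2 Psmg2 (-0.47, adjusted p = 0.0372) and Psmg3 (-0.36, adjusted p = 0.0392) passed the test as lower. Psmc3ip had 19.3, 13.7 and 11.3 FPKM in Foxo1dd and 9.72, 11.4 and 9.999 FPKM in Foxo1ff, with overlap (0.44 ± 0.19, adjusted p = 0.0772, and 0.0238 on the median-of-ratios scale).

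The alternative activators split by complex. Psme1 and Psme2 encode the subunits of PA28αβ, the interferon-inducible cap that aids the making of class I peptides. Psme1 had 220, 243 and 215 FPKM in Foxo1dd, against 146, 172 and 152 FPKM in Foxo1ff, a 1.44-fold higher mean (0.53 ± 0.12, adjusted p = 0.00411). Psme2 had 172, 177 and 177 FPKM in Foxo1dd and 86.6, 115 and 129 FPKM in Foxo1ff, 1.59-fold higher (0.68 ± 0.15, adjusted p = 0.00421). Both genes were higher in each Foxo1dd sample than in any Foxo1ff sample. Psme2b, a copy of Psme2, had 9.91, 13.2 and 10.9 FPKM in Foxo1dd and 4.53, 6.26 and 6.37 FPKM in Foxo1ff (0.88 ± 0.18, adjusted p = 0.0024), 1.98-fold higher. The longest coding transcripts of Psme2 and Psme2b were identical at 99.4% of 794 aligned bases, so how their reads were divided is uncertain and the pair is better read as 1 signal. The exons of Psme1 overlap those of Emc9 on the opposite strand.

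Psme3 encodes PA28γ, the nuclear activator, which is not induced by interferon. Its levels were 64.3, 48.3 and 56.6 FPKM in Foxo1dd, against 98.1, 94.9 and 87.3 FPKM in Foxo1ff, 1.66-fold lower without overlap (-0.73 ± 0.13, adjusted p = 0.00138). PA28 genes thus moved in opposite directions, αβ upward and γ downward, on both scales and under all 13 alternatives. Psme4, the PA200 activator, had 38.6 to 41.0 FPKM in Foxo1dd and 36.6 to 41.4 FPKM in Foxo1ff (0.06, adjusted p = 0.684). Psmf1, the inhibitor PI31, had 14.4, 10.7 and 15.1 FPKM in Foxo1dd and 17.2, 18.3 and 17.2 FPKM in Foxo1ff, a change of -0.38 that did not pass the test (adjusted p = 0.0606, and 0.0464 without Foxo1dd replicate 3).

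The inducible catalytic subunits, which are not members, were read against the constitutive ones they replace. Psmb8 had 133, 192 and 135 FPKM in Foxo1dd, against 39.2, 45.8 and 57.8 FPKM in Foxo1ff (3.22-fold, adjusted p = 7.47e-05). Psmb8 divided by Psmb5 was 1.86, 2.18 and 1.52 in Foxo1dd and 0.509, 0.431 and 0.507 in Foxo1ff. In FPKM, Psmb8 thus exceeded Psmb5 in every Foxo1dd sample and stood below it in every Foxo1ff sample. Which of 2 genes is higher depends on the gene lengths used, which are not stated. Psmb9 divided by Psmb6 was 0.155, 0.322 and 0.234 in Foxo1dd and 0.0512, 0.0606 and 0.0677 in Foxo1ff. For Psmb10 divided by Psmb7 the values were 0.164, 0.172 and 0.177 in Foxo1dd and 0.108, 0.0792 and 0.0842 in Foxo1ff. The log2 ratios differed by 1.91, 1.83 and 0.90, with no overlap in any of the 3 pairs. The 2-sided exact permutation p was 0.1 for each, the smallest that 3 against 3 samples can give, and 0.1 after adjustment over the 3 ratios. In limma, Psmb9 (3.46-fold, adjusted p = 0.000503) and Psmb10 (1.62-fold, adjusted p = 0.00173) also rose. Exons of Psmb9 overlap those of Tap1, and exons of Psmb8 those of Gm20496, on the opposite strand. Exons of Psmb5 overlap Mir686 on the same strand.

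**Figure D3:**
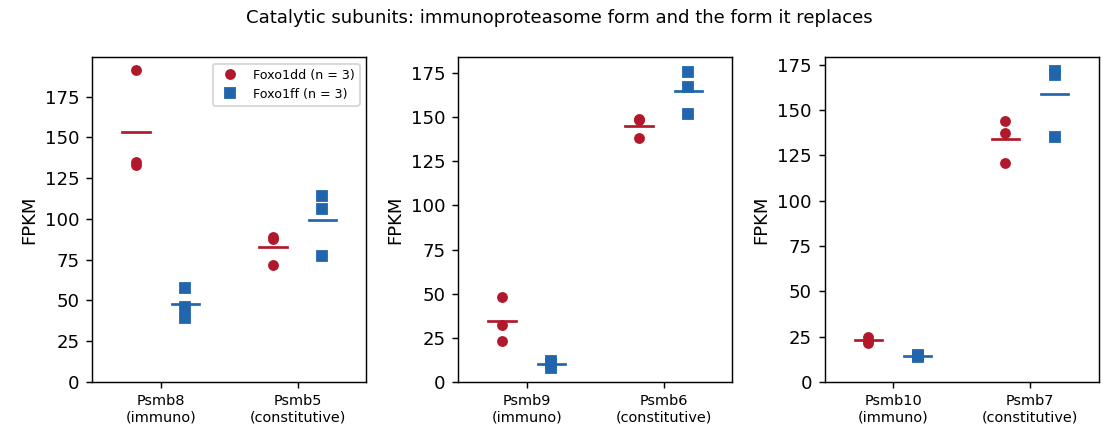
FPKM of the inducible and the constitutive catalytic subunit of each of the 3 active sites, 1 point a sample with lines at the means, Foxo1dd left of Foxo1ff. Psmb8 lies at 133 to 192 FPKM in Foxo1dd and 39.2 to 57.8 FPKM in Foxo1ff, and Psmb5 at 71.6 to 88.9 FPKM in Foxo1dd and 77.1 to 114 FPKM in Foxo1ff.

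Leukocytes express immunoproteasome genes at high level, and their markers were therefore set beside these values. Of 12 leukocyte markers 8 were tested, of which 6 fell and Laptm5 and Cd68 rose. The pan-leukocyte gene Ptprc had 0.252, 0.372 and 0.258 FPKM in Foxo1dd and 3.75, 4.05 and 2.96 FPKM in Foxo1ff. The summed level of the list was 75.4 to 94.7 FPKM in Foxo1dd and 44.6 to 92.4 FPKM in Foxo1ff, of which Laptm5 made up 53.2 to 70.7 FPKM in Foxo1dd. The part of other cell types in the rise of PA28 and the inducible subunits was not tested.

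Other genes of antigen presentation and of the proteasome system were read from lists. The shares of all tested genes to set beside these counts were 22.2% that rose and 34.2% that fell. Of 7 tested genes that serve or control class I presentation, 5 rose and none fell, with a median change of 1.06. Among them B2m, the class I light chain, was 2.33-fold higher (adjusted p = 2.43e-05) and the loading factor Tapbp 2.08-fold (adjusted p = 0.000121), while Irf1 did not pass the test. Of 8 further proteasome parts with other symbols, 4 fell and none rose (median -0.35). They were Uchl5 (2.04-fold lower) and Usp14 (1.54-fold lower), the deubiquitinases that associate with the 19S particle, the associated thioredoxin Txnl1 (1.69-fold lower) and the core maturation factor Pomp (1.38-fold lower, adjusted p = 0.0131, and 0.0857 on the median-of-ratios scale). The ubiquitin receptor gene Adrm1 had a change of 0.16 (adjusted p = 0.367).

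The NRF1 list held the factor, its relatives, its partners and genes that process or oppose it, not activators alone. Of its 11 genes, 8 fell (72.7%, against 34.2% of all tested genes) and none rose (median -0.68). On the median-of-ratios scale 6 of them also fell (54.5%, against 28.9% of all genes). Nfe2l1 had 52.9, 51.1 and 61.2 FPKM in Foxo1dd, against 163, 137 and 142 FPKM in Foxo1ff. The samples were far apart, and the level was 2.67-fold lower in Foxo1dd (-1.40 ± 0.12, adjusted p = 1.91e-05). Its relative Nfe2l2 fell by 0.68, and the partner genes Mafk and Maff by 0.78 and 0.88. Vcp, the ATPase that extracts NRF1 from the endoplasmic reticulum and many substrates for the proteasome, fell by 0.69, whereas the protease gene Ddi2 did not pass the test. Syvn1, Sel1l and Bach1, which are not plain activators of NRF1, also fell, by 0.74, 0.63 and 0.65. Syvn1 and Sel1l did not pass the test on the median-of-ratios scale. NRF1 is controlled mainly as a protein, which these values do not measure.

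Ubiquitin itself and its delivery changed in both directions. Among the ubiquitin and E1 genes, the ubiquitin gene Ubb rose (0.45) and the E1 gene Uba6 fell (-0.76). Of 12 tested shuttle and delivery genes, 5 fell (41.7%, against 34.2% of all tested genes) and 1 rose (8.33%, against 22.2%). Zfand2a, a stress-inducible factor that binds the 19S particle, had 10.1, 8.71 and 7.74 FPKM in Foxo1dd, against 28.5, 37.9 and 31.6 FPKM in Foxo1ff (-1.77 ± 0.15, adjusted p = 1.76e-05). Its paralog Zfand2b had 30.0, 36.9 and 48.9 FPKM in Foxo1dd and 16.1, 14.6 and 16.6 FPKM in Foxo1ff (1.21 ± 0.18, adjusted p = 0.000369). The paralogs thus moved apart, each with no overlap of samples.

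Other complexes of many subunits were set beside the proteasome. All 8 genes of the CCT chaperonin, a ring that folds actin and tubulin, fell, with a median change of -0.81 and a range of -1.05 to -0.54. For example, Cct8 had 127, 94.4 and 101 FPKM in Foxo1dd and 242, 216 and 210 FPKM in Foxo1ff (-1.05 ± 0.14, adjusted p = 0.000199). The COP9 signalosome, whose subunits resemble those of the lid, had 3 of 10 genes that fell, 2 of them also on the median-of-ratios scale, and 1 that rose, with a median of -0.08. The 1 that rose was Gps1, at 142, 138 and 154 FPKM in Foxo1dd, against 54.1, 60.0 and 64.6 FPKM in Foxo1ff (1.27 ± 0.12, adjusted p = 2.27e-05). The shares that rose, 10% here and 12.5% in the lid, were below the 22.2% of all tested genes. The share that fell was 100% in the CCT chaperonin and 30% in the COP9 signalosome, against 34.2% of all tested genes. No difference between complexes was tested.

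**Figure D4:**
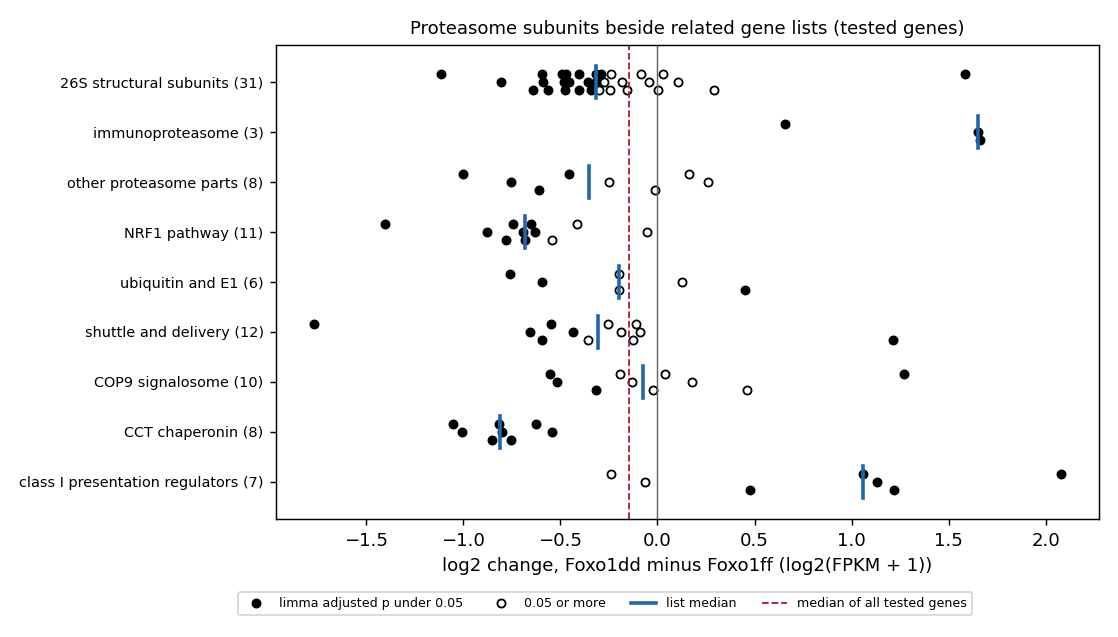
Changes of the 26S structural subunits and of 8 related gene lists, each point a tested gene, as log2(FPKM + 1) in Foxo1dd minus Foxo1ff; filled points have a limma adjusted p under 0.05, short bars are list medians and the dashed line is the median of all tested genes at -0.15. The structural subunits have their median at -0.32, the CCT chaperonin at -0.81 and the NRF1 list at -0.68.

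The genes around Psmd3 were examined because of its rise, so this choice was made after its values were seen. Within 100 kb of its start, measured between gene starts and negative upstream of Psmd3, 6 genes were tested, of which 4 rose and 1 fell. Across all tested genes 22.2% rose and 34.2% fell. Med24, a Mediator subunit 46.9 kb away, had 168, 155 and 162 FPKM in Foxo1dd, against 24.1, 18.8 and 19.5 FPKM in Foxo1ff (7.76-fold, adjusted p = 4.76e-07). Csf3, the granulocyte colony-stimulating factor, lies between Psmd3 and Med24 at 18.7 kb and had 70.7, 39.6 and 69.0 FPKM in Foxo1dd and 1.27, 0.454 and 3.00 FPKM in Foxo1ff (38.0-fold, adjusted p = 8.42e-06). Both genes changed more than Psmd3 did. Thra, the thyroid hormone receptor α gene at 58.1 kb, rose by 0.63, and Ormdl3, a regulator of sphingolipid synthesis at -95.2 kb, by 0.82. Nr1d1 at 92.8 kb fell by 0.47 (adjusted p = 0.0397, and 0.0601 on the median-of-ratios scale), and Gsdma, at -18.2 kb, did not pass the test (0.71, adjusted p = 0.062).

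**Figure D5:**
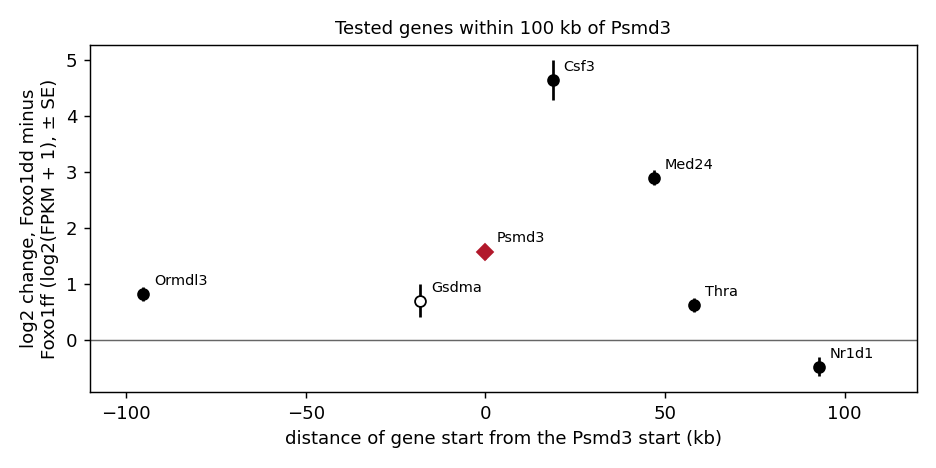
Changes of the tested genes within 100 kb of the Psmd3 start, as log2(FPKM + 1) in Foxo1dd minus Foxo1ff with 1 SE (open point: adjusted p of 0.05 or more), against the distance of each gene start from that of Psmd3 in kb. Csf3 at 18.7 kb and Med24 at 46.9 kb have the largest changes, 4.64 and 2.91.

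The same was done, again after the values were seen, for Psmd1 and for the PA28 pair, beside shares of all tested genes of 22.2% that rose and 34.2% that fell. Both tested neighbours of Psmd1 fell, 2810459M11Rik by 1.53 and Armc9 by 0.81. Psme1 and Psme2 start 13 kb apart on chromosome 14, and of the 14 genes tested within 100 kb of Psme1, Psme2 included, 7 rose and 4 fell. 1 of the 7 was Irf9, a DNA-binding factor of interferon signalling, 25.4 kb from Psme1, with 59.0, 57.0 and 67.7 FPKM in Foxo1dd and 15.3, 12.1 and 16.4 FPKM in Foxo1ff (4.20-fold, adjusted p = 6.21e-06). Rec8, Dcaf11 and Mdp1 rose as well, and Tm9sf1, Ipo4 and Pck2 were among those that fell. The genes around PA28 therefore did not all move in the same direction.

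Promoter sequences from RefSeq (GRCm38.p6, the assembly behind mm10), each from 250 bases before to 50 bases after a RefSeq gene start, were found for 39 of the 47 genes, 42 promoters in all. Letters were searched on both strands. The antioxidant response element TGACNNNGC occurred in 6 of the 42 promoters (14.3%), against 12.4% of 32851 promoters of all genes, and the 6 genes were Psmb5, Psmb6, Psmc6, Psmd12, Psmd9 and Psme4. Of these only Psmc6 fell and none rose. CCAAT occurred in 14 (33.3%), against 37.4% of all promoters, and in 7 of the 16 genes with a promoter that fell, 1 of the 5 that rose and 5 of the 17 that did not pass the test. The forkhead core TGTTTAC was found in 0 of 42, against 3.65% of all promoters. The interferon-stimulated response element, GAAA, 2 bases of any kind and GAAA, searched after the values were seen, occurred in 5 (11.9%, against 3.44%): Psmb3, Psmd4, Psmd9, Psme1 and Psmg4. Of those, Psme1 rose and Psmb3 and Psmd4 fell, so the matches lay in genes of both directions.

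Shown here are the promoters of Psmd1, the member with the largest fall, of the constitutive catalytic subunits Psmb6 and Psmb5, which hold the antioxidant response letters, and of Psme1, which holds the interferon letters. Each is given 5′ to 3′ on the strand of its gene, with the match in capitals; the Psme1 match reads on the opposite strand, and Psmd1 held none of the 4 motifs.
Psmd1 promoter, chr1:86064369-86064668, plus strand: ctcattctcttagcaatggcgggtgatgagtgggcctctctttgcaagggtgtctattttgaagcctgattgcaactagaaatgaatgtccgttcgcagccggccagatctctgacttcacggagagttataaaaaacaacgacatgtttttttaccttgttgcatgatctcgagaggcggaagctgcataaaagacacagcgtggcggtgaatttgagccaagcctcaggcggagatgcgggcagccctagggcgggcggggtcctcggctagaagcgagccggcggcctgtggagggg
Psmb6 promoter, chr11:70525107-70525406, plus strand: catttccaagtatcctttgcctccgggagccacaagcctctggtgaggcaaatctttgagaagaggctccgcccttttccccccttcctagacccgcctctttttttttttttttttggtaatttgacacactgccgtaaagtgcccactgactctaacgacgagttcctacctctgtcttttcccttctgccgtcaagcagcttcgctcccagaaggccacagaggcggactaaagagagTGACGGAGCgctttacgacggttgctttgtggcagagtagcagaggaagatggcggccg
Psmb5 promoter, chr14:54617946-54618245, minus strand: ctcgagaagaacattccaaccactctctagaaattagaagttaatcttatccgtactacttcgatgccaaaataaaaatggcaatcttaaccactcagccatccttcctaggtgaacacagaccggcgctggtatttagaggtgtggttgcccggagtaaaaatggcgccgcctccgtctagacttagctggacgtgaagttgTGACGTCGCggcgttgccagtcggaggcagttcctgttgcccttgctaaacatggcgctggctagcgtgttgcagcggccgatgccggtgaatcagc
Psme1 promoter, chr14:55578244-55578543, plus strand: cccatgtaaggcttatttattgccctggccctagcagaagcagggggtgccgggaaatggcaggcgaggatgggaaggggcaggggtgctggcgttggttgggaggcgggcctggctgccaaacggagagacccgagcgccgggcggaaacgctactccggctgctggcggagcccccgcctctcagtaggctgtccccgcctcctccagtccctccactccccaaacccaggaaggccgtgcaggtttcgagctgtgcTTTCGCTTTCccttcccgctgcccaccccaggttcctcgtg

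The Psmb6 match starts 9 bases and the Psmb5 match 47 bases before the RefSeq gene start, and the Psme1 match starts 10 bases after it. RefSeq starts can differ from the GENCODE starts used for the other coordinates. The GENCODE starts of Psmd1 (86064387) and Psme1 (55578123) lie upstream of the RefSeq starts used here. These matches describe letters and not binding, and no promoter of Psmd3 was used here.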

How the data were processed

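RNA-seq libraries from 6 laser-captured samples (3 Foxo1dd, 3 Foxo1ff) were analysed from the FPKM table the authors deposited. The submitters' processing notes name mm10, STAR 2.5.2b, featureCounts 1.5.0-p1 of Subread, edgeR 3.28.0 and DESeq2 1.12.4, without roles; the gene annotation, gene lengths and strand setting are not stated. Depth is known only from low values: 1 read per kb was worth 0.0102 to 0.0136 FPKM, so a gene of 10 FPKM had 736 to 980 reads per kb, by an estimate from 26 to 132 genes per sample in which 82.4% to 86.7% of values were whole within 0.05 read.

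Genes whose mean reached 1 FPKM were tested with limma 3.58.1 (R 4.3.3) on log2(FPKM + 1), with a variance trend. Benjamini-Hochberg adjustment was over 11427 genes, and all 6 samples were used without a covariate. The test was also run on simulated data with few changed genes and no difference of scale between groups. That run does not cover the many changes and the dependence on scale seen here. Ratios were compared by exact permutation. A pseudocount of 0.1, no filter, a minimum of 5 FPKM, median-of-ratios and quantile scaling, no trend, a replicate block and leaving out each sample were the 13 alternatives. Genes named outside the members are up to 4 per list, those with the smallest adjusted p. Foxo1, Pgr, Psmb8 to Psmb10, Pomp, Adrm1 and Nfe2l1 are named whatever their values. Vcp, Ddi2, Syvn1, Sel1l, Bach1, Irf1, the leukocyte genes and all neighbours were named after their values were seen. Coordinates and overlaps are from GENCODE M21 (GRCm38). The members and lists were chosen with earlier results of these data known. The pseudocount understates log2 changes of low genes. Some genes of the lists are not reported here by name.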

Additional observations from a re-analysis of the deposited data

How the results depend on the processing

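Of the members, 5 that rose (Psmd3, Psme1, Psme2, Psme2b and Psmd10) and 10 that fell (Psmd1, Psmd2, Psmd4, Psmc3, Psma5, Psmb2, Psmb3, Psmd7, Psmd11 and Psme3) were called under all 13 alternatives. The number that fell was 19, and 10 with median-of-ratios scaling and 12 with quantile scaling; leaving out 1 sample at a time gave 11 to 19, the lowest without Foxo1ff replicate 2, and the cause was not tested. Among the 31 structural subunits, 18 fell, and 9 with median-of-ratios and 11 with quantile scaling, with 10 to 18 when 1 sample was left out; 1 rose, and 2 under either scaling, with 1 to 2 when 1 sample was left out. Of the core subunits 6 fell, and 3 under either scaling and without the filter, with 3 to 8 when 1 sample was left out; none rose, and 1 under either scaling, with 0 to 1 when 1 sample was left out. Of the 19S subunits 12 fell, and 6 with median-of-ratios scaling, with 7 to 11 when 1 sample was left out. Changes near 0 turned positive with median-of-ratios and quantile scaling: Psma2 to 0.11 and 0.13, Psma7 to 0.069 and 0.066, Psmg1 to 0.15 and 0.15, Psmg4 to 0.14 and 0.15. Leaving out 1 sample at a time gave changes of either sign, from -0.14 to 0.0876 for Psma2, -0.23 to 0.017 for Psma7, -0.11 to 0.062 for Psmd13, -0.049 to 0.087 for Psmg1 and -0.052 to 0.037 for Psmg4.

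Same-numbered samples did not all deviate together (correlations over genes of 0.12, 0.11 and -0.13, and only Foxo1dd replicate 1 was closest to its own number), so the numbers were not taken to pair the samples. With a replicate block, 6 members rose and 14 fell.

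With 3 samples per group, calls near the threshold rested on single samples, as for Psmb5 and Psmb7, which passed the test without Foxo1ff replicate 1.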

Other observations

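Gps1, the COP9 subunit gene that rose, was chosen after its values were seen for a look at its surroundings. Of 8 genes tested within 100 kb, 7 rose and none fell, where 22.2% of all tested genes rose and 34.2% fell. Rfng, which starts 0.1 kb away, was 11.1-fold higher in Foxo1dd than in Foxo1ff, Dcxr 13.0-fold, Cbr2 39.8-fold, the fatty acid synthase gene Fasn 3.75-fold and Dus1l 2.38-fold. Each of the 6 members that rose had a tested gene within 100 kb that changed more than it did, as Gps1 had. This was not particular to them, and 56.4% of all tested genes changed. The share of all tested genes with such a neighbour was not computed, so the count of 6 is not read further. Psme1 and Psme2 share Irf9 as such a neighbour and are not separate cases. Among members that fell, Psmd1 had 2810459M11Rik (-1.53) and Psmd2 had Chrd (2.78), whereas Psmd11 and Psmd4 had no such neighbour. Beside Psmd5, Cutal, which starts 0.6 kb away, was 4.38-fold higher, and beside Psme2b, Irgm1 was 5.01-fold higher. Beside Psmd10, Atg4a, which starts 0.2 kb away, had 6.07, 3.45 and 4.64 FPKM in Foxo1dd and 0.927, 1.53 and 1.67 FPKM in Foxo1ff (3.43-fold, limma adjusted p = 0.00127). Over the other members such neighbours moved in both directions.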
